A study of Mus musculus with 27 samples.

Results

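Mitochondrial fatty acid oxidation was followed in mouse liver through 37 genes, chosen by symbol from the enzymes and carriers of the pathway, with earlier results of these data known but by a rule that uses no measured value. All 37 genes had probes on the Affymetrix mouse expression array that the platform's table assigns to 1 symbol, 64 probes in all, out of 18194 genes with such a probe. Of the 37 genes, 36 passed the filter on low values, which asks that a probe average above log2(100) on 1 diet or more, and 6478 genes of the whole array passed. The filter counts a gene that is bright on 1 diet only, so the 36 are the detected members and not all members. Acss1, which codes for a mitochondrial acetyl-CoA synthetase, did not pass and was at most 2.44 on the log2 scale in all 27 mice, at or near the floor that every array shares.

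Fatty acids reach the mitochondrial matrix as acylcarnitines: Cpt1a, held to be the rate-limiting step, makes them at the outer membrane, the carrier Slc25a20 moves them inward and Cpt2 returns them to CoA. Each turn of the spiral then uses an acyl-CoA dehydrogenase, a hydratase, a hydroxyacyl-CoA dehydrogenase and a thiolase, and releases acetyl-CoA, while the electron transfer flavoprotein passes electrons to the respiratory chain. In liver much of the acetyl-CoA is turned into ketone bodies. The nuclear receptor PPARalpha, which binds fatty acids, is a known regulator of many of these genes.

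The livers came from male C57BL/6 mice, bought at 10 weeks of age, that ate 1 of 9 diets for 3 weeks and were not fasted before sampling, with n = 3 mice on each diet and an array for every mouse. Control mice ate the purified AIN-93 diet. The others were a natural ingredient lab chow, a diet with 60% fructose, a high-fat diet, a Western diet high in saturated fat and sucrose with 42% of calories from fat, an atherogenic diet that adds cholesterol and cholic acid to much fat, an essential fatty acid (EFA) deficient diet, a diet with 7% sunflower oil that is low in n-3 fatty acids, and diet restriction. Diet restriction was 75% of the amount of chow eaten freely, so its values against control include the change from purified diet to chow. For the low n-3 mice the labels conflict: title and diet tag speak of a DHA supplement, the description of sunflower oil, and the description was followed. Medians over the kept probes lay between 8.20 and 8.35 on the 27 arrays, and no 2 arrays matched in every value. All 7 hepatocyte markers on the array passed the filter, as did 6 of 7 sinusoidal endothelium and 5 of 7 stellate cell markers. None of the 4 cholangiocyte, 5 T and NK cell or 3 adipocyte markers with a probe of 1 symbol did. The adipocyte markers Cfd and Plin1 had no such probe, so they could not be judged here. The study itself reports that Cfd rose on the Western and high-fat diets.

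A gene's value is the mean log2 intensity of its kept probes, a percent is the fitted group mean over that of the other diet with its 95% confidence interval in brackets, and the adjusted p comes from limma over all 27 arrays and all detected genes. The number of arrays limits the precision of every value. RNA of whole liver was measured, so fewer cells of a type and less RNA per cell cannot be told apart.

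RefSeq promoters (GRCm38.p6, from 250 bases before to 50 after the gene start) were at hand for 32 members, 34 promoters in all, with none for Acaa2, Decr1, Acot13, Crat and Acat1. Because PPARalpha binds, with its partner RXR, a repeat of the hexamer AGGTCA with 1 base between the copies, promoters were searched for both on both strands. The hexamer stood in 7 of the members' 34 promoters (20.6%), in 6 genes, against 16.3% of all 32851 promoters. The 3 below show it in genes whose transcripts are followed through the diets, as windows of 30 bases on the gene's strand with the hexamer, or its reverse complement, in capitals.
Acadm, chr3:153944864-153944893, minus strand: gTGACCTtcgggctccggtgacactgggca
Acadvl, chr11:70015498-70015527, minus strand: atggatcaccctAGGTCAggtagaatacag
Cpt1a, chr19:3323195-3323224, plus strand: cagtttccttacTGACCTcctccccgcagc

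The exact repeat was found in 0 of the 34 promoters and in 0.0396% of all promoters. With up to 2 mismatches it stood in 4 of 34 (11.8%), those of Slc25a20, Echs1, Etfa and Pcca, against 3.86% of all, and it overlaps the hexamer wherever 1 copy is exact. The windows of 3 of these show the looser match in capitals.
Slc25a20, chr9:108662134-108662163, plus strand: ctgaatgtAGGTGAAAGGTCGgcggagccg
Echs1, chr7:140116483-140116512, minus strand: gcccgctcAGGTCACGGGTCCaccccttaa
Etfa, chr9:55512299-55512328, minus strand: gcacacccTTACCTTTGCCCTactcccaag
These matches describe letters in short windows and say nothing of binding in these livers.

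Transcripts of fatty acid oxidation were higher on both fat-rich diets other than the atherogenic one. On the high-fat diet 17 of the 36 detected members rose and 0 fell, where 6.00% of all detected genes rose and 3.33% fell. On the Western diet 18 rose and 0 fell, against 4.31% and 4.48% of all genes. Against control, the 9 detected Kupffer cell markers all had lower fitted levels on the Western diet (median log2 difference -0.87, 0 called, 7 at an unadjusted p under 0.05) and on diet restriction (median -0.95, 1 called, Clec4f), and their part in the members' results was not tested. The median member stood 0.45 above control on the log2 scale on the high-fat diet and 0.45 above it on the Western diet. The median of all detected genes was -0.02 on the high-fat and -0.03 on the Western diet.

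The other diets called fewer members. On the atherogenic diet 3 members rose and 3 fell, against 9.03% and 5.88% of all genes. That split became 2 and 5 with arrays centred on their medians and 3 and 5 after a further quantile normalization. The EFA-deficient diet raised 1 member and lowered 1, against 3.04% and 2.47% of all genes. Diet restriction raised 7 and lowered 0, against 13.5% and 16.0% of all genes, so that its share of members that rose was near that of all genes. The number raised was 5 or 6 members with each array left out in turn. With the brightest kept probe per gene, 7 were raised and 1 was lowered.

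No member was called on 3 diets. Lab chow gave 0 calls by limma, where 2.02% of all genes rose and 2.19% fell, and 6 members had an unadjusted p under 0.05. High fructose gave 0, where 1.17% rose and 2.73% fell, with 5 members at an unadjusted p under 0.05. The low n-3 diet gave 0, where 0.340% rose and 0.726% fell, with 1 such member. Dunnett's test per gene, unadjusted over genes, also gave 0 on each of the 3 diets. Without high fructose replicate 2, or without control replicate 3, 1 member was called lower on high fructose, while with arrays centred on their medians 1 was called higher. The 8 comparisons share the same 3 control mice.

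**Figure D1:**
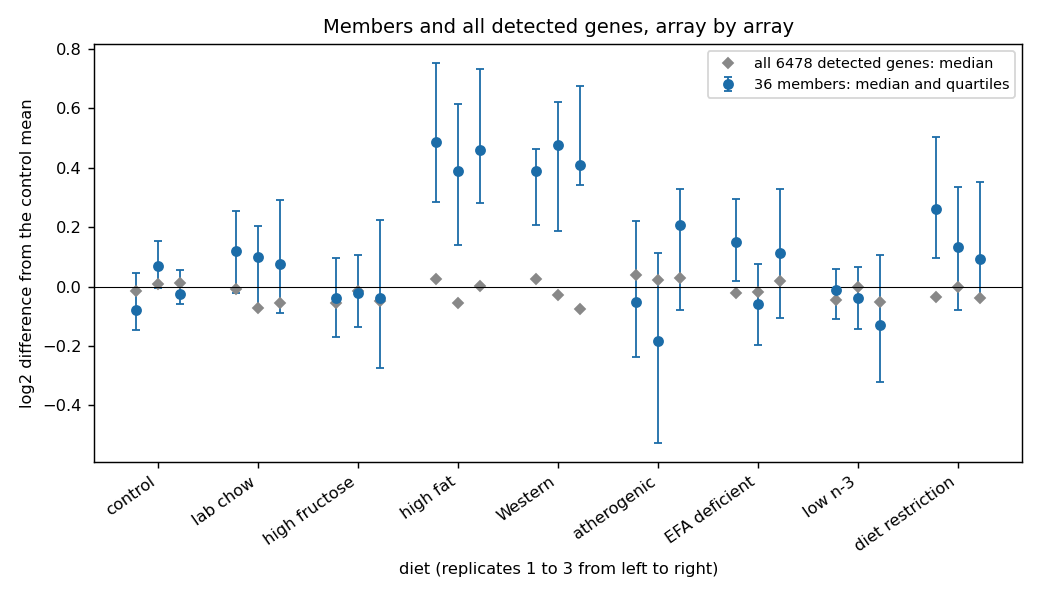
Median (point) and quartiles (bar) of the 36 detected members in each of the 27 mice, as log2 difference from the control mean, beside the median of all 6478 detected genes (diamond). The members' medians lie between 0.39 and 0.49 in the 6 mice of the high-fat and Western diets, and between -0.18 and 0.21 in the 3 atherogenic mice.

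In single mice the members' median was 0.49, 0.39 and 0.46 above the control mean on the high-fat diet and 0.39, 0.47 and 0.41 on the Western diet. The 3 control mice themselves lay at -0.08, 0.07 and -0.03. Between 29 and 34 of the 36 members were above their control mean in each of these 6 mice. Atherogenic replicate 2 stood lowest of all mice, with a median of -0.18 and 13 members above the control mean, and atherogenic replicate 3 had 0.21 and 25.

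**Figure D2:**
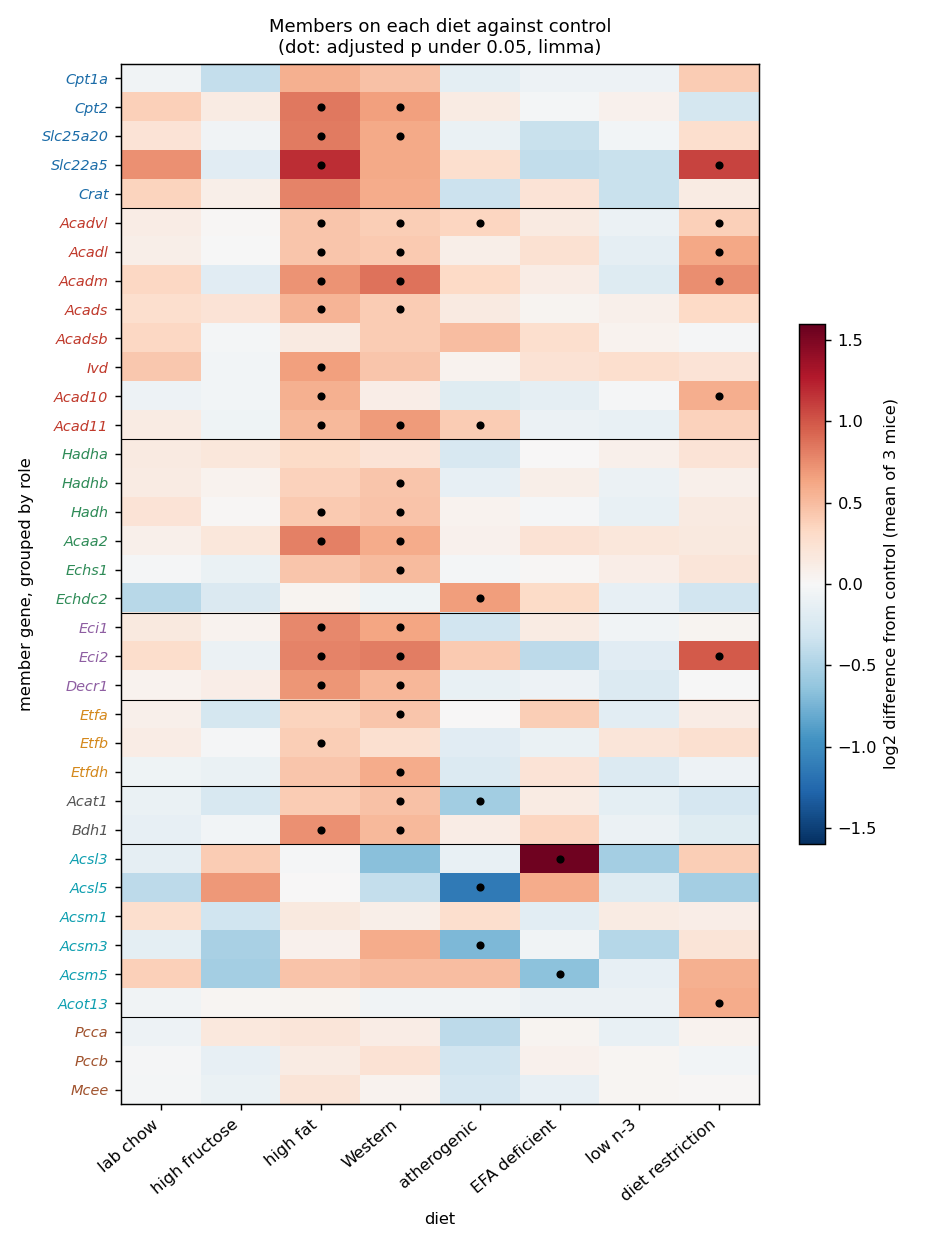
Log2 difference from control (colour, mean of 3 mice) of the 36 detected members, grouped by role from the carnitine shuttle at the top to propionyl-CoA breakdown at the bottom, on 8 diets; a dot marks an adjusted p under 0.05. Of the dots, 17 fall on the high-fat and 18 on the Western diet, and the low n-3, lab chow and high fructose columns hold none.

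Over the 9 diets together, 33 of the 36 detected members varied by the moderated F test, where 71.6% of all detected genes did. Those that did not pass were Ivd (adjusted p = 0.050), Crat (adjusted p = 0.076) and Mcee (adjusted p = 0.083). Acadm had the smallest adjusted p of the members, 3.5e-06, followed by Acadvl with 9.5e-06.

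Among the 5 genes of the carnitine shuttle, 3 rose on the high-fat and 2 on the Western diet, where 6.00% and 4.31% of all detected genes rose. Cpt1a itself was not called on any diet. It measured 10.50, 11.04 and 10.50 in control mice, 10.92, 11.33 and 11.48 on the high-fat diet and 11.06, 11.34 and 11.05 on the Western diet. Control replicate 2 lay above high-fat replicate 1, so those groups overlapped, whereas all Western mice lay above all control mice by a narrow margin. The fitted level was 148% of control [103 to 213] in high-fat mice (adjusted p = 0.18) and 139% [96.2 to 199.97] on the Western diet (adjusted p = 0.27).

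The 3 probes of Cpt1a did not move alike. On the high-fat diet they stood 0.37, 0.27 and 1.05 above control on the log2 scale, and on diet restriction 0.36, 0.27 and 0.61. The gene's mean therefore rests on probes that differ in size of response. On the remaining diets Cpt1a measured 10.64, 10.50 and 10.72 (lab chow), 10.20, 10.55 and 10.14 (high fructose), and 10.60, 10.09 and 10.87 (atherogenic). It measured 11.06, 9.89 and 10.83 on the EFA-deficient diet, 10.82, 10.70 and 10.27 on the low n-3 diet and 11.40, 10.84 and 11.03 on diet restriction. The EFA-deficient mice spread the most, with an SD of 0.62, against 0.31 in control mice.

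Cpt2, which reforms acyl-CoA in the matrix, was 10.01, 10.47 and 9.88 in control mice, between 10.85 and 11.04 on the high-fat diet and 10.78, 10.74 and 10.81 on the Western diet. Neither fat-rich group overlapped the control. It rose to 180.0% of control [142 to 229] in high-fat mice (adjusted p = 0.0019) and to 158% [124 to 201] on the Western diet (adjusted p = 0.014). The Western call was lost without control replicate 1 (adjusted p = 0.054) or control replicate 3 (adjusted p = 0.085).

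Slc25a20, the carnitine-acylcarnitine carrier, was 10.56, 10.97 and 10.70 in control mice, 11.55, 11.62 and 11.56 on the high-fat diet and 11.13, 11.35 and 11.56 on the Western diet. Every fat-fed mouse lay above every control mouse. The levels were 178% of control [139 to 228] (adjusted p = 0.0031) and 152% [118 to 195] (adjusted p = 0.029). The Western call did not hold without Western replicate 2 or 3 or control replicate 1 or 3, with adjusted p between 0.063 and 0.11.

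Slc22a5, which takes carnitine into the cell, had the largest rise of any member on the high-fat diet. It measured 6.63, 7.23 and 6.41 in control mice, of which 2 lay below the detection level of log2(100), and 7.89, 7.86 and 8.06 on the high-fat diet. The fitted 226% of control [150.0 to 340.2] (adjusted p = 0.010) is therefore less certain in size, and without control replicate 3 it was 200.3% (adjusted p = 0.062). On diet restriction Slc22a5 was 8.43, 7.24 and 7.85, or 212% of control [141 to 319] (adjusted p = 0.018). That call was lost without control replicate 1, control replicate 3 or diet restriction replicate 1, the last leaving 172% (adjusted p = 0.095). Crat, which makes acetylcarnitine, was not called in any comparison.

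**Figure D3:**
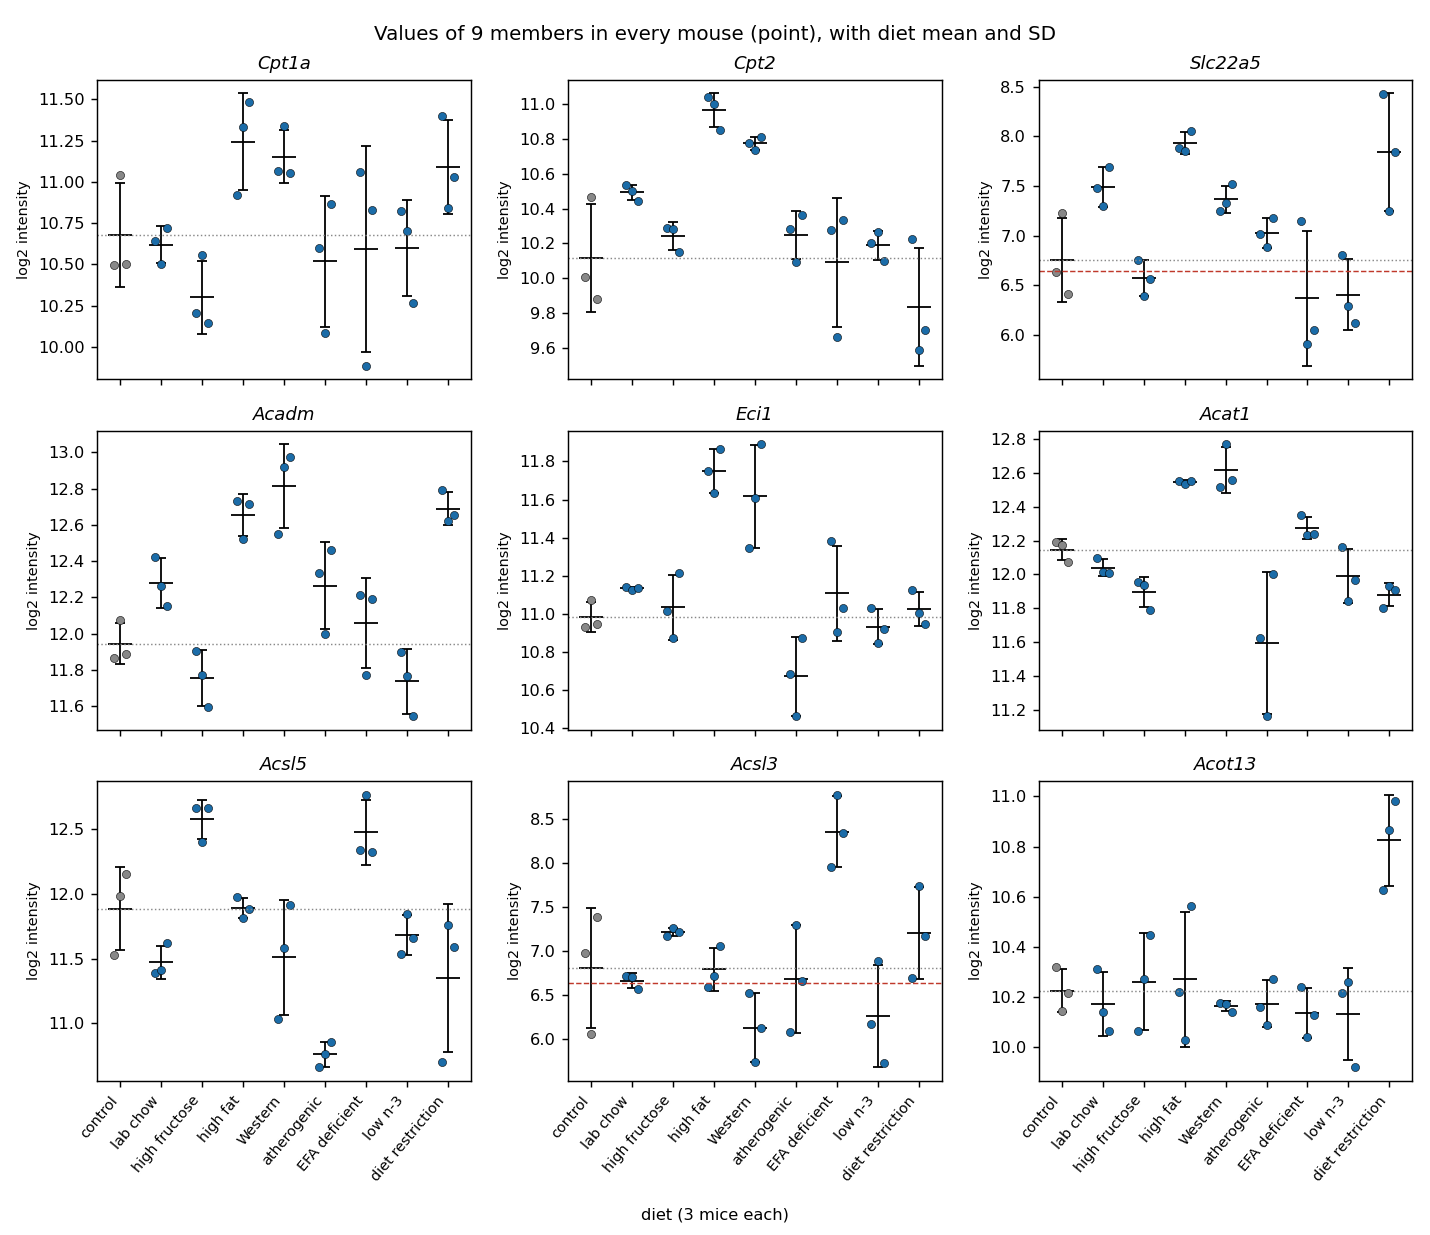
Log2 intensity of 9 members in each mouse (points), with the mean and SD of each diet (bars, n = 3), the control mean (dotted line) and, for Slc22a5 and Acsl3, the detection level of log2(100) (dashed line); axes do not start at 0. Cpt2 and Eci1 were called higher than control on the high-fat and Western diets, and Acadm also on diet restriction; Acsl5 is low on the atherogenic diet, Acsl3 is high on the EFA-deficient diet and Acot13 on diet restriction.

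The acyl-CoA dehydrogenases open each turn of the spiral for chains of different length. They were the largest group of members and had the most calls. Of the 8, 7 rose on the high-fat diet, 5 on the Western diet, 4 on diet restriction and 2 on the atherogenic diet. Of all detected genes, 6.00%, 4.31%, 13.5% and 9.03% rose on those diets. Acadm, the medium-chain enzyme, was 11.87, 12.07 and 11.89 in control mice and 12.55, 12.92 and 12.98 on the Western diet. All 3 Western mice lay above all control mice. It rose to 183% of control [149 to 225] on the Western diet (adjusted p = 0.00031), to 164% [133 to 201] in high-fat mice (adjusted p = 0.0023) and to 168% [137 to 206] on diet restriction (adjusted p = 0.0015). Those 3 calls held with each array left out in turn.

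Acadvl, the very long-chain enzyme, moved by smaller amounts with a small spread between mice. It was 11.85, 11.98 and 11.92 in control mice, 12.46, 12.36 and 12.27 on the high-fat diet and 12.23, 12.26 and 12.28 on the atherogenic diet. Neither of these groups overlapped the control. It rose on 4 diets, to 136% of control on the high-fat diet (adjusted p = 0.00044), 132% on the Western diet (adjusted p = 0.0014), 127% on the atherogenic diet (adjusted p = 0.0053) and 130% on diet restriction (adjusted p = 0.0023).

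Acadl, the long-chain enzyme, was 12.09, 12.18 and 12.06 in control mice and 12.90, 12.66 and 12.65 on diet restriction, with no overlap. It reached 154% of control [131 to 181] on diet restriction (adjusted p = 0.00080), 136% in high-fat mice (adjusted p = 0.013) and 133% on the Western diet (adjusted p = 0.021). Acads, the short-chain enzyme, rose to 146% of control in high-fat mice (adjusted p = 0.0048) and to 133% on the Western diet (adjusted p = 0.032).

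Acad11, a family member active on long chains, was 11.88, 12.19 and 11.98 in control mice, 12.68, 12.83 and 12.58 on the Western diet and 12.46, 12.14 and 12.67 on the atherogenic diet. The Western mice lay above all control mice, while atherogenic replicate 2 lay within the control range. It was 160.5% of control [133 to 193] on the Western diet (adjusted p = 0.0013), 143% in high-fat mice (adjusted p = 0.013) and 133% [110.4 to 159.8] on the atherogenic diet (adjusted p = 0.047). The atherogenic call was lost without control replicate 1 or 3 or atherogenic replicate 1 or 3, with adjusted p between 0.11 and 0.20.

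Acad10, another family member, was dim, with 6.30, 6.50 and 6.54 in control mice, all below the detection level. On the high-fat diet it was 6.97, 6.86 and 7.23, at least 1.30-fold higher (adjusted p = 0.048), and on diet restriction 7.06, 6.96 and 7.07, at least 1.31-fold higher (adjusted p = 0.043). Its mean passed the filter on these 2 diets alone, so the calls, which count among the 17 and the 7, rest on the groups that let it through. Without the filter its other probe, at 2.29 on every diet, was averaged in. The log2 difference on diet restriction was then 0.29, against 0.58 with the filter. Both calls were lost at that setting (adjusted p = 0.12 and 0.11). Both were also lost without any 1 of the 3 control mice or of the 3 mice on the diet, with adjusted p up to 0.16 on the high-fat diet and 0.14 on diet restriction. Ivd, which acts in leucine breakdown, rose to 158% of control in high-fat mice (adjusted p = 0.040), and Acadsb, for short branched chains, was not called in any comparison.

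In the next steps of the spiral, hydration, second dehydrogenation and thiolysis, 2 of the 6 genes rose on the high-fat diet and 4 on the Western diet. Of all detected genes, 6.00% and 4.31% rose on those diets. The median log2 difference of the 6 was 0.39 and 0.45. Acaa2, the thiolase that closes the spiral, was 12.37, 12.60 and 12.59 in control mice, 13.46, 13.32 and 13.19 on the high-fat diet and 12.95, 13.16 and 13.23 on the Western diet. All 6 fat-fed mice lay above the control mice. It rose to 175% of control [142 to 214] (adjusted p = 0.00069) and to 151% [123 to 186] (adjusted p = 0.0092). Its 3 probes ranged from 0.51 to 1.18 above control on the log2 scale on the high-fat diet.

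Hadh, the short-chain hydroxyacyl-CoA dehydrogenase, rose to 133% of control in high-fat mice (adjusted p = 0.045) and to 137% on the Western diet (adjusted p = 0.028). Hadhb, the beta subunit of the trifunctional protein, rose to 137% on the Western diet (adjusted p = 0.041) and stood at 129% [106 to 158] on the high-fat diet (adjusted p = 0.094), where its probes were 0.55 and 0.19 above control on the log2 scale. The alpha subunit Hadha was at 123.5% [105 to 145] in high-fat mice (adjusted p = 0.094) and 116% [98.8 to 136.5] on the Western diet (adjusted p = 0.25). Echs1, the short-chain hydratase, rose to 142% on the Western diet (adjusted p = 0.041).

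Unsaturated chains need extra enzymes, and the 3 among the members all rose on the high-fat and Western diets, where 6.00% and 4.31% of all detected genes rose. Eci1, an enoyl-CoA isomerase, was 10.93, 11.07 and 10.94 in control mice, 11.75, 11.64 and 11.87 on the high-fat diet and 11.35, 11.61 and 11.89 on the Western diet. The 6 fat-fed mice lay above all control mice, and the levels were 170.2% of control [140.2 to 207] (adjusted p = 0.00063) and 155% [128 to 188] (adjusted p = 0.0038).

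Eci2, an isomerase found in mitochondria and peroxisomes, was 11.26, 11.72 and 11.25 in control mice, 12.16, 12.17 and 12.28 on the high-fat diet, 12.13, 12.35 and 12.23 on the Western diet and 12.83, 12.20 and 12.17 on diet restriction. None of these groups overlapped the control. It rose to 173% (adjusted p = 0.027), 177% (adjusted p = 0.022) and 198% (adjusted p = 0.0065) of control. The high-fat call was lost without control replicate 1 or 3 or any 1 of the high-fat mice, and the Western call without control replicate 1 or 3 or Western replicate 2, with adjusted p from 0.053 to 0.10. Decr1, the 2,4-dienoyl-CoA reductase, rose to 162.5% of control in high-fat mice (adjusted p = 0.0087) and 145% on the Western diet (adjusted p = 0.044).

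Of the 3 genes that carry electrons to the respiratory chain, Etfb rose on the high-fat diet, to 131% of control (adjusted p = 0.020). Etfa rose to 136% (adjusted p = 0.038) and Etfdh to 150.3% (adjusted p = 0.017) on the Western diet. Of the 2 ketone body enzymes, Bdh1, which makes beta-hydroxybutyrate, rose to 166% of control in high-fat mice (adjusted p = 0.0045) and 143% on the Western diet (adjusted p = 0.042). Acat1, the acetoacetyl-CoA thiolase, was 12.19, 12.17 and 12.08 in control mice and 12.52, 12.77 and 12.56 on the Western diet, where it rose to 138% [114 to 168] (adjusted p = 0.030). The Western mice lay above all control mice. On diet restriction, where Acat1 was not called, its 3 probes stood 0.11 above and 0.37 and 0.54 below control on the log2 scale.

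Of the 17 calls on the high-fat diet, 8 held with each array left out in turn (Cpt2, Slc25a20, Acadvl, Acadm, Acads, Acaa2, Eci1 and Bdh1), as did 5 of the 18 on the Western diet (Acadvl, Acadm, Acad11, Acaa2 and Eci1). The high-fat count was 11 without control replicate 1 or without control replicate 3. The Western count was 6 without either of those mice, 7 without Western replicate 2 and 11 without Western replicate 3. It was 1, Acadm, when the Western and control mice were fitted alone, and 6 without the filter on low values.

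The enzymes that activate or release fatty acids were not called on the high-fat or Western diet in any of the 6 detected cases. Acsl5, a long-chain acyl-CoA synthetase, was 11.53, 11.98 and 12.15 in control mice and 10.66, 10.76 and 10.86 on the atherogenic diet. The groups were far apart, and Acsl5 fell to 45.7% of control [33.0 to 63.4] (adjusted p = 0.0023), a call that held with each array left out. On high fructose it was 12.66, 12.40 and 12.66, all above the control mice, at 161% [117 to 224] (adjusted p = 0.057).

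Acsm3, a medium-chain synthetase, was 9.34, 9.29 and 9.23 in control mice and 8.83, 8.06 and 8.82 on the atherogenic diet, with no overlap. It fell to 61.0% of control [44.8 to 83.1] (adjusted p = 0.038). That call was lost without any 1 of the control mice or atherogenic replicate 2, which left 72.9% (adjusted p = 0.19).

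Acsl3, a long-chain synthetase tied to lipid droplet formation, rose on the EFA-deficient diet by more than any other member on any diet. It was 6.98, 6.06 and 7.39 in control mice, 1 of them below the detection level, and 7.96, 8.78 and 8.35 on the EFA-deficient diet. The groups did not overlap, and the fitted level was 293% of control [179 to 482] (adjusted p = 0.0052). Of its 2 kept probes, 1 passed the filter on the EFA-deficient diet alone, with a mean of 5.98 in control mice and 7.55 on that diet. The other averaged 7.64 in control mice and 9.18 on the EFA-deficient diet. The call was lost when the EFA-deficient and control mice were fitted alone (adjusted p = 0.20), a fit that called 0.0309% of all genes.

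Acsm5, another medium-chain synthetase, was 9.65, 9.25 and 8.96 in control mice and 8.92, 8.21 and 8.78 on the EFA-deficient diet. Control replicate 3 lay just above EFA-deficient replicate 1. Acsm5 fell to 63.6% of control [47.8 to 84.7] (adjusted p = 0.040), a call lost without control replicate 1 or 2 or EFA-deficient replicate 2, with adjusted p between 0.085 and 0.19. The count of 2 on the EFA-deficient diet was 1 without control replicate 1 or 2 and 4 without EFA-deficient replicate 1.

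Acot13, a thioesterase that splits acyl-CoA, was 10.32, 10.15 and 10.22 in control mice and 10.63, 10.87 and 10.98 on diet restriction. The restricted mice lay above all control mice, at 151% of control [126 to 182] (adjusted p = 0.0041), and the call held with each array left out. Acsm1 and the propionyl-CoA gene Mcee were not called in any comparison.

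The atherogenic diet also raised a gene of the hydratase group and lowered a ketone body enzyme. Echdc2, a protein with a hydratase domain, was 8.00, 7.71 and 7.92 in control mice and 8.48, 8.51 and 8.62 on the atherogenic diet. The groups did not overlap and it rose to 158% of control [121 to 208] (adjusted p = 0.028), a call lost without control replicate 2 or 3 or any 1 of the atherogenic mice, with adjusted p up to 0.11. Acat1 was 11.62, 11.16 and 12.00 there, below all control mice, and fell to 68.2% of control [56.2 to 82.8] (adjusted p = 0.011); without atherogenic replicate 2 it was 79.3% (adjusted p = 0.058). The atherogenic count of 6 was 3 without control replicate 3, where 9.68% of all genes were called, against 14.9% in the main fit.

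The Western and atherogenic diets share much fat, and the atherogenic diet adds cholesterol and cholic acid. Against the Western diet, 19 members were lower and 1 was higher on the atherogenic diet, where 6.50% of all detected genes were lower and 11.3% higher. The members' median difference was -0.44 on the log2 scale, against 0.05 for all genes. Called lower were 5 of the 6 genes of hydration, dehydrogenation and thiolysis, all 3 electron carriers, 2 of the 3 enzymes for unsaturated chains, 2 of 8 acyl-CoA dehydrogenases, 2 of 5 carnitine shuttle genes and 2 of 3 genes of propionyl-CoA breakdown.

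**Figure D4:**
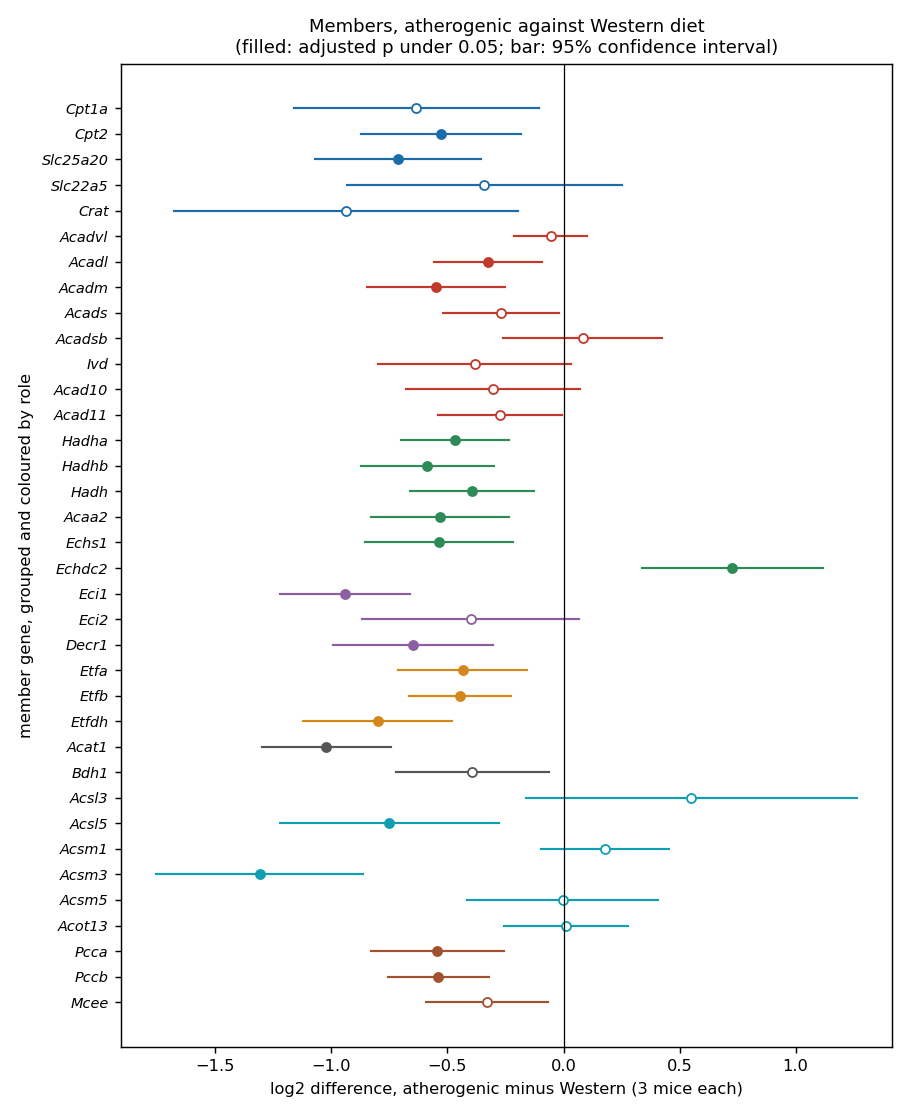
Log2 difference between the atherogenic and Western diets (atherogenic minus Western, 3 mice each) of the 36 detected members with 95% confidence intervals, grouped and coloured by role; filled points have an adjusted p under 0.05. The points of 19 filled members lie left of 0, and Echdc2 is the 1 filled member to the right.

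Acsm3 was lowest in relation, with 9.75, 10.17 and 9.73 on the Western diet against the atherogenic values above, at 40.4% [29.6 to 55.0] (adjusted p = 0.00025). Acat1 was at 49.3% [40.6 to 59.8] (adjusted p = 2.6e-05), with every atherogenic mouse below every Western mouse. Eci1 was 10.68, 10.46 and 10.87 on the atherogenic diet, below all Western mice, at 52.0% [42.8 to 63.1] (adjusted p = 6.1e-05). These 3 calls held with each array left out and under every other setting tried.

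Etfdh, which hands electrons to ubiquinone, was 11.09, 11.49 and 11.15 on the Western diet and 10.54, 10.07 and 10.72 on the atherogenic diet. The groups did not overlap, and the atherogenic level was 57.4% [46.0 to 71.6] of the Western one (adjusted p = 0.0010). Acsl5 was 11.03, 11.58 and 11.91 on the Western diet, above all atherogenic mice, with a ratio of 59.5% [42.9 to 82.4] (adjusted p = 0.025). That call was lost without Western replicate 2 or 3 or atherogenic replicate 1 or 2, with adjusted p between 0.062 and 0.16.

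Pccb and Pcca, the subunits of propionyl-CoA carboxylase, were at 68.8% [59.1 to 79.9] (adjusted p = 0.0011) and 68.6% [56.3 to 83.7] (adjusted p = 0.0084) of the Western level. Echdc2 was 7.79, 8.17 and 7.48 on the Western diet, below all atherogenic mice, and stood at 166% [126 to 217] (adjusted p = 0.0096). Without Western replicate 3 it was 148% (adjusted p = 0.075). With each array left out, 8 of the 20 calls held, those of Hadha, Hadhb, Eci1, Etfb, Etfdh, Acat1, Acsm3 and Pccb. The count of 20 was 11 without Western replicate 3, 10 without atherogenic replicate 2 and 4 when the 2 diets were fitted alone. Of all genes 11.6%, 12.7% and 6.73% were then called, against 17.8% in the main fit.

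Kupffer cell markers moved the other way between these diets. All 9 of the detected 9 markers were higher on the atherogenic than on the Western diet, with a median log2 difference of 2.16, and 4 of 9 were higher than control. Their summed intensity was 8966 to 15992 in atherogenic mice, 1703 to 2783 in Western mice and 3480 to 4702 in control mice. Marco, Cd68 and Timd4 did not pass the filter on any diet. None of the 7 hepatocyte markers was called between the 2 diets, and their sum was 289647 to 304151 in atherogenic and 295359 to 333628 in Western mice. Their part in the members' difference was not tested.

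Diet restriction and lab chow differ in the amount of the same food. Against lab chow 6 members were higher and 1 was lower on diet restriction, where 19.2% of all detected genes were higher and 17.6% lower, so the members' share that rose was near that of all genes and the share that fell was below it. Eci2 was 11.73, 11.64 and 11.73 on lab chow, below all restricted mice, at 162.5% [117.5 to 225] (adjusted p = 0.018). Acot13 was 10.31, 10.14 and 10.06 on lab chow, again below all restricted mice, at 157% [131 to 189] (adjusted p = 0.00045). Acadl was 12.35, 12.12 and 12.13, with a ratio of 145% [123 to 169.9] (adjusted p = 0.00085).

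Cpt2 was the 1 member lower than on lab chow. It was 10.53, 10.50 and 10.45 on lab chow and 10.22, 9.59 and 9.70 on diet restriction, without overlap, at 63.4% [49.9 to 80.6] (adjusted p = 0.0038). Acadm was 12.42, 12.26 and 12.15 on lab chow and 12.79, 12.62 and 12.66 on diet restriction, at 133% [108 to 163] (adjusted p = 0.029), and Acadvl was at 119.6% (adjusted p = 0.010). Acad10 was 6.32, 6.50 and 6.28 on lab chow, all below the detection level, and at least 1.31-fold higher on diet restriction (adjusted p = 0.0063).

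The calls of Cpt2, Acadl, Acad10 and Acot13 held with each array left out. Acad10 averaged above the filter level on diet restriction but not on lab chow, so its call rests on the group that is high. The call of Acad10 also held without the filter on low values. The call of Eci2 was lost without lab chow replicate 2 or diet restriction replicate 1, and that of Acadm without lab chow replicate 2 or 3 or diet restriction replicate 1 or 3, with adjusted p between 0.052 and 0.12. The count of 7 was 4 without diet restriction replicate 1. With the brightest kept probe per gene, 6 were higher and 2 lower. No call of a Kupffer cell marker was made between these diets, and the summed level was 1366 to 3737 in restricted and 2002 to 2588 in chow-fed mice.

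Diet restriction and the high-fat diet were set against each other in a contrast added after the values had been seen. On diet restriction 8 members were lower and 1 was higher than on the high-fat diet, where 23.6% of all detected genes were lower and 20.3% higher. The members' share called lower was therefore near the background, and the share called higher was below it. Of the 8 acyl-CoA dehydrogenases none was called, and both ketone body enzymes, 2 of the 5 carnitine shuttle genes and 2 of the 3 enzymes for unsaturated chains were lower. With 23.6% of all genes lower, such small counts do not set any role apart.

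**Figure D5:**
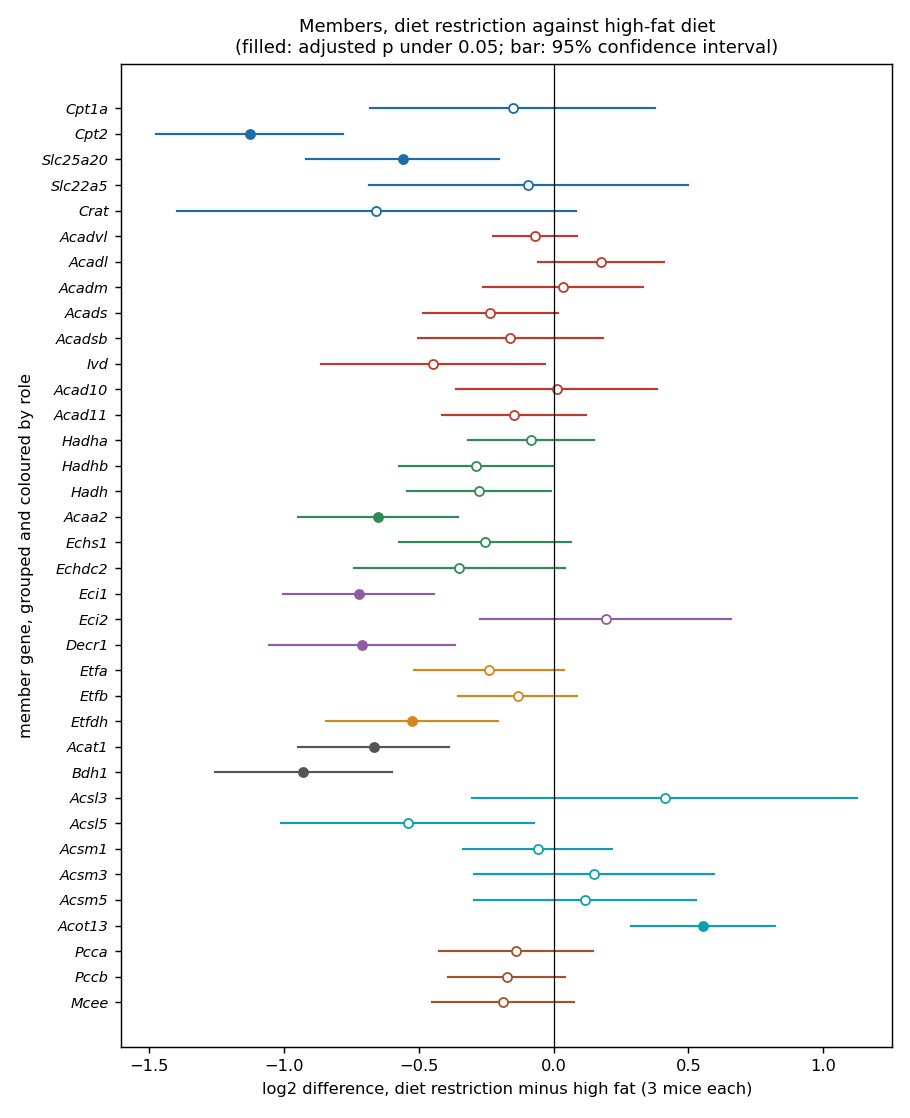
Log2 difference between diet restriction and the high-fat diet (restriction minus high fat, 3 mice each) of the 36 detected members with 95% confidence intervals, grouped and coloured by role; filled points have an adjusted p under 0.05. The 8 filled members left of 0 include Cpt2 and Bdh1, and Acot13 is the 1 filled member to the right.

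Cpt2 was at 45.7% [36.0 to 58.1] of its high-fat level (adjusted p = 1.6e-05), from the values given above, with no overlap. Bdh1 was 10.48, 10.52 and 10.34 on the high-fat diet and 9.09, 9.80 and 9.67 on diet restriction. Its groups were clearly apart, at 52.5% [41.8 to 66.0] (adjusted p = 8.4e-05). Eci1 was 11.13, 11.01 and 10.95 on diet restriction, at 60.6% [49.9 to 73.5] (adjusted p = 0.00020).

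Decr1 was 10.59, 10.43 and 10.56 on the high-fat diet and 9.76, 9.84 and 9.84 on diet restriction, at 61.1% [48.1 to 77.6] (adjusted p = 0.0016). Acat1 was 12.55, 12.53 and 12.56 against 11.80, 11.93 and 11.91, at 62.9% [51.8 to 76.4] (adjusted p = 0.00044). Acaa2 was 12.82, 12.74 and 12.45 on diet restriction, at 63.7% [51.9 to 78.2] (adjusted p = 0.00093), but with its brightest probe alone it was at 85.6% (adjusted p = 0.071). In all 3 genes every restricted mouse lay below every high-fat mouse. Acot13 was 10.22, 10.03 and 10.56 on the high-fat diet and stood at 147% [122 to 177] (adjusted p = 0.0016). Of the 9 calls, 8 held with each array left out, all but that of Slc25a20. Of the 9 Kupffer cell markers 7 were lower on diet restriction than on the high-fat diet, where their sum was 3403 to 6297, and their part in these differences was not tested.

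Between the Western and the high-fat diet limma called 0 members, where 1.16% of all detected genes were higher and 3.10% lower on the Western diet, and 2 members, Acad10 and Acsm3, had an unadjusted p under 0.05. The interval of the difference was 80.0% to 111% for Hadha and 65.1% to 135% for Cpt1a, Western over high fat. Acsm3 had the largest ratio upwards, 145% [106 to 197] (adjusted p = 0.17). Acad10 was at 72.7% [56.1 to 94.2] (adjusted p = 0.16). The width of these intervals means that the 2 diets were not shown to act alike.

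Genes that work beside the members were counted from lists written with textbook knowledge, to be read against the shares of all detected genes: 6.00% rose and 3.33% fell on the high-fat diet, 4.31% and 4.48% on the Western diet and 13.5% and 16.0% on diet restriction, and 11.3% were higher and 6.50% lower on the atherogenic than on the Western diet. Of 17 detected genes of peroxisomal beta-oxidation, which shortens very long chains, 9 rose on the high-fat and 8 on the Western diet, and 0 fell on either. Decr2, the peroxisomal dienoyl-CoA reductase, rose to 290.5% of control [220.0 to 384] in high-fat mice (adjusted p = 1.3e-05) and Ehhadh, the peroxisomal bifunctional enzyme, to 319.7% [242 to 422] on the Western diet (adjusted p = 4.2e-06). On diet restriction 3 of the 17 rose and 2 fell, near the 13.5% and 16.0% of all genes. Abcd2, a peroxisomal transporter of very long-chain acyl-CoA that lay below the detection level in control mice, rose at least 1.41-fold (adjusted p = 2.9e-08). Its mean passed the filter on diet restriction alone, so this call, which counts among the 3, rests on the group that let it through. Crot, which makes carnitine esters in peroxisomes, fell to 26.9% of control (adjusted p = 2.2e-07).

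Of 17 detected genes listed as PPARalpha targets, 8 rose on the high-fat diet, 5 rose and 1 fell on the Western diet, and 8 rose and 5 fell on diet restriction. Their median log2 difference was 0.89, 0.61 and 0.55. The list also holds the receptor's own gene Ppara and the regulator Ppargc1a, so the counts are not of targets alone. Ppara was among those that rose on each of these diets. Ppargc1a was the 1 that fell on the Western diet and was among those that rose on diet restriction. Aldh3a2, a fatty aldehyde dehydrogenase, rose to 366% of control (adjusted p = 6.7e-05) on the high-fat diet and 393% (adjusted p = 3.5e-05) on the Western diet. Against the Western diet 6 of the 17, Ppara among them, were lower and 1, Ppargc1a, was higher on the atherogenic diet, with Aldh3a2 at 42.0% (adjusted p = 0.0026).

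Of 13 detected further genes of beta-oxidation and ketogenesis, 1 rose and 1 fell on the high-fat diet, and 3 rose and 3 fell on the Western diet. The mitochondrial hydroxyacyl-CoA dehydrogenase Hsd17b10 rose to 214% of control [166 to 274] in high-fat mice (adjusted p = 0.00021) and was at 38.8% of the Western level on the atherogenic diet (adjusted p = 1.6e-05). Acacb, whose product malonyl-CoA inhibits Cpt1a, fell to 32.3% of control on the high-fat diet (adjusted p = 0.017), 23.3% on the Western diet (adjusted p = 0.0026), 18.1% on the atherogenic diet (adjusted p = 0.00055), 31.9% on diet restriction (adjusted p = 0.016) and 38.8% on lab chow (adjusted p = 0.047). Cpt1a was not called on any of these diets, but a difference in response between Acacb and Cpt1a was not tested. Over all diets together Cpt1a varied by the moderated F test (adjusted p = 0.022). Its interval on the high-fat diet, given above, lay wholly above the control level.

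Of 5 detected carnitine synthesis genes, 2 rose on the high-fat diet, 0 were called on the Western diet, and 3 were lower on the atherogenic than on the Western diet, among them Shmt1 at 51.1% (adjusted p = 5.1e-05) and Bbox1, the last enzyme of carnitine synthesis, at 61.2% (adjusted p = 0.0019). Of 16 detected citric acid cycle genes, which take up the acetyl-CoA, 3 rose on the high-fat diet, 2 on the Western diet and 4 on diet restriction, where Mdh2, a malate dehydrogenase, reached 175% of control (adjusted p = 5.1e-07) and 1 gene, the citrate synthase Cs, fell to 52.9% (adjusted p = 0.0041). Against the Western diet 5 of the 16 were lower on the atherogenic diet. Of 9 detected genes of branched-chain amino acid breakdown, which feeds propionyl-CoA to Pcca and Pccb, 5 rose on diet restriction, with Bckdhb, a subunit of the branched-chain ketoacid dehydrogenase, at 193% of control (adjusted p = 0.00013).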

How the data were processed

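Liver RNA of 27 mice was measured on Affymetrix mouse expression arrays, 1 array per mouse and 3 mice per diet. The authors preprocessed the scans with GCRMA (version not given in the sources used here), which corrects background, normalizes across arrays and returns log2 intensities, the deposited unit. Normalization across arrays makes every value relative, and GCRMA sets dim probes to a shared lowest value, which narrows their spread. Groups follow the labels. Of 45101 probes, 34958 list 1 gene symbol, 932 list several and 9211 none, and only the first were used. Probes averaging over log2(100) on 1 diet or more were kept and averaged by gene.

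Diets were compared in limma 3.58.1 under R 4.3.3 with 9 diet means and 18 residual degrees of freedom. P-values were two-sided and adjusted by Benjamini and Hochberg at 0.05, over all genes and the 8 comparisons with control together, and within each comparison between other diets. A fold against a group whose arrays all lie below log2(100) is a bound against that level, and the p beside it tests the fitted difference. By the methods, each array held 1 mouse. The fit was tested on simulated data.

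Array values are given for Cpt1a and for at most 6 called members per comparison, those with the largest change. Arrays of Acadvl and Acad10 (high fat), Acaa2 and Acat1 (Western) and Acsl5 (high fructose) were added after their values were seen. For the other lists at most 3 called genes are named. The members, lists and tests were chosen with earlier results of these data known, and the contrast of diet restriction with high fat was added after the values were seen. Alternatives were adjustment within each diet, no filter or one at log2(200), the 2 diets fitted alone, a trend and robust prior, centred arrays, a second quantile normalization, a block for replicate number, the brightest probe, Dunnett's test as in the methods, and each array left out. Python 3.11.15 with numpy 2.4.6, pandas 2.3.3, scipy 1.17.1 and matplotlib 3.10.9 made the tables and plots.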

Additional observations from a re-analysis of the deposited data

How the results depend on the processing

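Alternatives were followed for single members in the comparisons where they were called, and for Cpt1a in all. No called member changed direction, while the uncalled Cpt1a changed sign on lab chow, atherogenic, EFA-deficient and low n-3 diets and between the Western and high-fat diets when certain single arrays were left out. Of 1467 such values, 1221 kept their side of the threshold and 246 were no longer past it, 145 of these when 1 array was left out. With the 2 diets fitted alone, 1 member was called on the Western diet, 2 on the atherogenic diet, 0 on the EFA-deficient diet and 4 between the atherogenic and Western diets. Without the filter on low values, 6 were called on the Western, 3 on the atherogenic and 1 on the EFA-deficient diet. Adjustment within each diet left 1 on the EFA-deficient diet, and centring the arrays on their medians gave 1, higher, on high fructose.

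With each array left out in turn, the calls numbered 11 to 14 on high fat, 6 to 14 on the Western, 3 to 6 on the atherogenic and 1 to 4 on the EFA-deficient diet, 5 to 6 on diet restriction, 0 to 1 on high fructose, and 0 to 0 on lab chow and low n-3. They numbered 4 to 7 for diet restriction against lab chow, 9 to 10 against high fat, 10 to 23 for atherogenic against Western, and 0 to 0 for Western against high fat, and 31 to 35 members varied over the diets. Of all genes, 5.25% to 7.80% were called on high fat and 5.06% to 9.52% on the Western diet. For atherogenic against Western it was 11.6% to 18.9%.

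Nothing in the labels says that a replicate number marks a shared litter, batch or day, so the numbers were not taken to pair mice: 6 of 36 pairs of same-numbered mice correlated above 0.1 in their deviations from the diet means (from -0.17 to 0.24), and 17 of 27 arrays correlated best with an array of their own number, which is a hint from the data and not from the design. With the replicate block, 16 members were called on high fat, 17 on the Western diet and 1, higher, on high fructose. For the dim members Acad10, Slc22a5 and Acsl3, signal near the detection level limits the size of the change, of which Acad10 gave a bound only.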
